A study of Mus musculus with 22 samples.

Results

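Genes of the unfolded protein response and of the amino acid stress response were examined in mouse embryo forelimbs with and without Chsy1, which encodes a chondroitin sulfate synthase. The 10 genes are the endoplasmic reticulum chaperones Hspa5, Hsp90b1, Pdia4 and Dnajb9, the degradation factor Herpud1, the transcription factors Xbp1, Atf4 and Ddit3, and the effectors Trib3 and Chac1. They were chosen by name, as chaperones and stress effectors relevant to cells that secrete matrix, and the rule uses no measured value, though earlier results of these data were known when it was set. They were found on 14 of the 41174 probes of the array and stand for 10 of the 18642 genes and unnamed probes tested. All samples were forelimbs of strain 129 embryos at 13.5 days: 9 were wild type and 13 carried the Chsy-1 knockout. The labels do not say which part of Chsy1 was altered, nor whether 1 embryo or several went into a sample. The p-values below thus reflect the spread among these arrays alone. Forelimb RNA carried Cy5 and was hybridised with 1 Cy3-labelled universal mouse reference RNA, without dye swaps. Every level below is therefore a log2 ratio of forelimb to reference, and every difference is knockout minus wild type on that scale.

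Secretory cells fold collagens, proteoglycans and other client proteins in the endoplasmic reticulum. When unfolded proteins accumulate there, the sensors IRE1 (Ern1), PERK (Eif2ak3) and ATF6 raise the output of chaperones and degradation factors, in part through spliced XBP1 and cleaved ATF6. PERK and the amino acid sensor GCN2 (Eif2ak4) both phosphorylate eIF2alpha, which favours translation of ATF4 and, downstream of it, transcription of Ddit3, Trib3, Chac1 and genes of amino acid supply. This second branch is known as the integrated stress response. Cartilage is a tissue in which both branches have been studied, because chondrocytes export large amounts of matrix. Splicing, cleavage, phosphorylation and translation are not seen by an expression array.

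Some promoters of these genes carry short elements through which both branches are known to act, and upstream stretches that hold them are shown for the 4 members that had one there. RefSeq promoter windows on GRCm38.p6, from 250 bases before to 50 bases after the start site, were found for all 10 members and searched on both strands. Capitals mark the matches, and a match on the other strand is printed as its reverse complement. The endoplasmic reticulum stress element, CCAAT and CCACG with 9 bases of any kind between them, occurred in Hspa5 (chr2:34772015-34772053, plus strand) and at 2 places in Hsp90b1 (chr10:86705523-86705666, minus strand). The related element, ATTGG and CCACG with 1 base between them, occurred in Herpud1 (chr8:94386307-94386397, plus strand), which also held TGATGNAA, the composite element bound by ATF4 with C/EBP proteins. Chac1 held the same composite element (chr2:119351039-119351066, plus strand).
Hspa5: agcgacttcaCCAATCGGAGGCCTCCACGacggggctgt
Hsp90b1: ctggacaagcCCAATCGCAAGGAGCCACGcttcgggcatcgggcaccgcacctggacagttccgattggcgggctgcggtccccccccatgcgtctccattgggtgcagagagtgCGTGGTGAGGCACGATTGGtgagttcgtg
Herpud1: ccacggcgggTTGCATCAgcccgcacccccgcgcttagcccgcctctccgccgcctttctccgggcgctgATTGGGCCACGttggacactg
Chac1: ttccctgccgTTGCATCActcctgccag

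The stress element of Hspa5 lay from -65 to -47 relative to the start site, and those of Hsp90b1 lay from -212 to -194 and from -107 to -89. Of all 32841 promoter windows, 39 (0.119%) held this element, 2 of them promoters of members. The related element of Herpud1 lay from -52 to -42 and occurred in 12 windows (0.0365%). The composite element TGATGNAA was more frequent, at 1303 windows (3.97%). It lay from -112 to -105 in Herpud1, from -193 to -186 in Chac1 and downstream of the start site, from 15 to 22, in Trib3. The XBP1 element TGACGTGG occurred in 222 windows (0.676%) and in 0 of the 10 members. Pdia4, Dnajb9, Xbp1, Atf4 and Ddit3 held none of these elements in the window. A plain CCAAT box, which is contained in the first element and, on the other strand, in the second, occurred in 8 of 10 members and in 37.4% of all windows. These are matches of letters in a window of fixed length and do not show binding.

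All 14 probes were well above background in both channels on all 22 arrays, and no value was missing. Signals differed widely: the Cy5 spots of Hsp90b1 ranged from 31800 to 76200 units and those of Hspa5 from 21500 to 51500. Those of Chac1 ranged from 189 to 342 and those of Trib3 from 176 to 511, over local backgrounds of 51 to 61.5. At such low signals the offset of 50 added in background correction compresses ratios.

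Of the 43379 non-control spots, 27214 to 30599 were well above background, depending on the array, all arrays were scanned on 1 day, and array-to-array correlations were 0.886 to 0.993. For Chsy1 itself, the wild-type arrays averaged 1.73 ± 0.28 (SD, n = 9) and the knockout arrays -4.38 ± 1.39 (SD, n = 13). Knockout 1 stood at 0.15, against -5.12 to -4.05 in the other 12 knockout arrays. Its level lay below the wild-type mean and far above the other knockout arrays, so results are also given without it. The array of wild-type 1 stood apart for many genes and held the highest value of 13% and the lowest of 16.9% of all genes. The 6 slides all held both genotypes, but of the 4 positions on a slide only position 2 did, with 3 wild-type and 3 knockout arrays. The 6 arrays at position 1 were all wild type, and the 6 at position 3 and 4 at position 4 were all knockout. Tbx5, which marks the forelimb, had log2 ratios of 1.10 to 2.81 in wild type. The hindlimb genes were not absent: Pitx1 had log2 ratios of 5.12 to 6.02 in wild type and Cy5 signals of 27200 to 86000, and Tbx4, at 89.2 to 217, was dim but well above background on all 22 arrays. The source of these signals was not tested. Fewer cells of a type and less RNA per cell cannot be told apart in these bulk samples.

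The comparison asks whether loss of Chsy1 changed the stress responses of the forelimb, and no member was called. Limma called 4 of 18642 genes and unnamed probes (0.0215%) at an adjusted p of 0.05, and 0 of the 10 members were among them; over single probes it called 4 of 27803 (0.0144%) and 0 of the 14 of the members. All 4 called genes were lower in knockout (0.0215%) and 0 were higher. In this fit 0 of the 10 members had an unadjusted p under 0.05. Over the whole array such a p was found for 257 genes higher and 736 lower in knockout. The median difference of the members was -0.046, beside -0.0072 over all genes. In 8 of 10 members the difference was below 0, as it was in 53.4% of all genes, but with each array centred on its median, relative to the shift of all genes, it was so in 2 of 10, and with slide position as a block in 3 of 10. All 10 of the 95% intervals included 0, and all 10 lay within 1.5-fold in either direction, as did 96.6% of the intervals of all genes. The widest bound was 1.35-fold lower, for Chac1. These are bounds on measured ratios, which the offset compresses for Trib3 and Chac1, and they are those of the fit without covariates. The fit with position as a block gave larger differences for some members, such as Xbp1 at 0.38, and its bounds are not given here. In other settings some members did have an unadjusted limma p under 0.05. Trib3 did with the scanner software's ratio (p = 0.00604) and Cy5 alone (p = 0.00915), and Xbp1 with position as a block (p = 0.0167). Several did with median centring, where the median of all genes itself was 0.238.

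**Figure D1:**
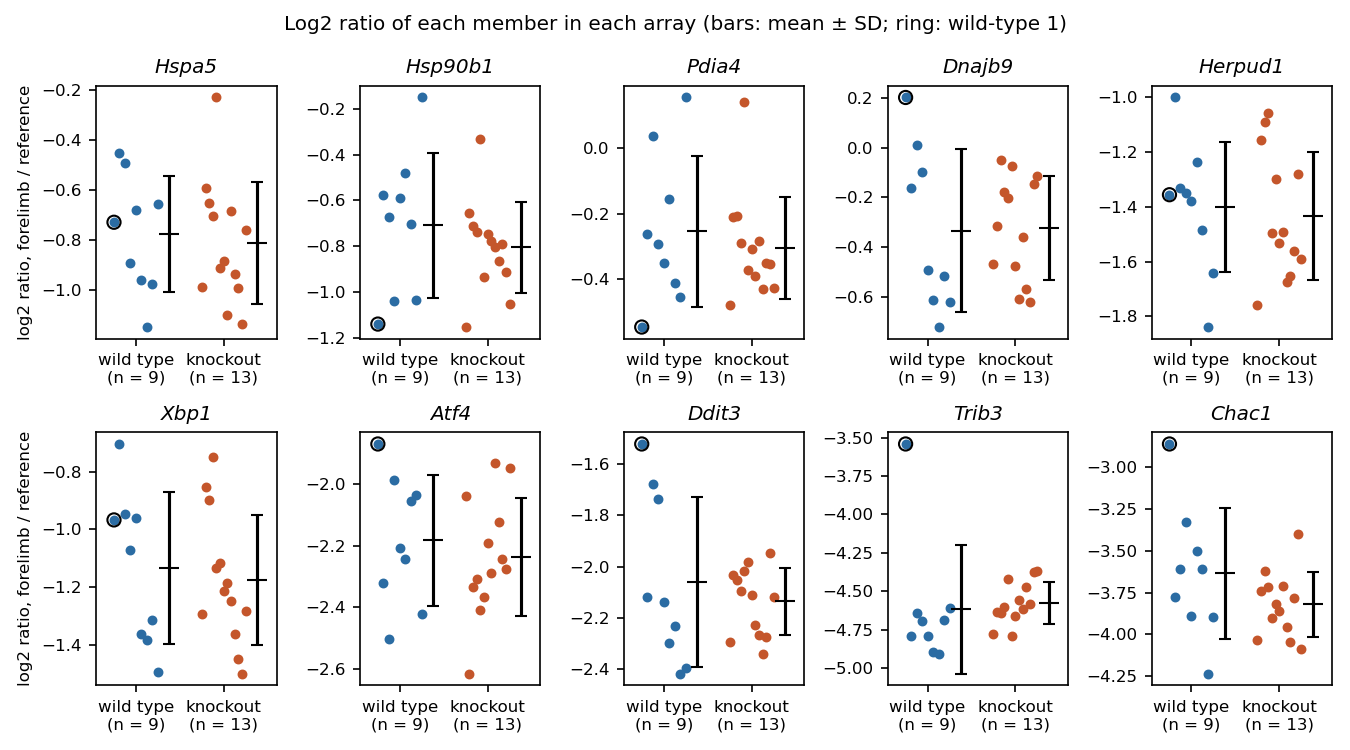
Log2 ratio of forelimb to reference for each of the 10 genes in each of the 22 arrays (9 wild type in blue, 13 knockout in orange; bars are mean ± SD; each panel has its own axis). The genotypes overlap in every panel, and the ringed array, wild-type 1, is the highest of all in Dnajb9, Atf4, Ddit3, Trib3 and Chac1 and the lowest in Pdia4.

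Hspa5 encodes BiP, the abundant chaperone of the endoplasmic reticulum that also holds the stress sensors inactive. Its log2 ratio in wild type ran from -1.15 to -0.45 with a median of -0.73, and in knockout from -1.13 to -0.23 with a median of -0.88. The ranges overlapped almost entirely: only knockout 5, at the top, lay outside the wild-type range. The means were -0.78 ± 0.23 (SD, n = 9) and -0.81 ± 0.25 (SD, n = 13), which puts wild-type forelimbs at 58.4% of the reference. The difference was -0.036 (95% interval -0.24 to 0.17, limma adjusted p = 0.982).

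Hsp90b1 encodes GRP94, the HSP90 chaperone of the endoplasmic reticulum. Its log2 ratio ran from -1.14 to -0.15 in wild type (median -0.67) and from -1.15 to -0.33 in knockout (median -0.79). Knockout 5 was again the highest of its group and knockout 1 the lowest, and 11 of 13 knockout values were under the median of wild type. The difference was -0.097 (95% interval -0.31 to 0.12, limma adjusted p = 0.950). A second, dimmer probe gave -0.30 (95% interval -0.72 to 0.11), with a wider spread in wild type (SD 0.64, n = 9). The probes lie at chromosome 10, 86120824 to 86120883 and 86128383 to 86128442 (mm8, as in the files), and over the 22 arrays they correlated at r = 0.67 within genotype.

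Pdia4 encodes ERp72, a protein disulfide isomerase. Wild-type log2 ratios ran from -0.55 to 0.15 (median -0.29) and knockout ratios from -0.48 to 0.14 (median -0.35), so every knockout array lay inside the wild-type range. The difference of -0.051 (95% interval -0.22 to 0.12, limma adjusted p = 0.972) was smaller than the SD of either group, 0.23 in wild type (n = 9) and 0.16 in knockout (n = 13).

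Dnajb9 encodes ERdj4, a cochaperone of BiP that also keeps IRE1 inactive. Wild-type log2 ratios ran from -0.72 to 0.20 (median -0.49) and knockout ratios from -0.62 to -0.048 (median -0.32), again with every knockout array inside the wild-type range. The difference of the means was 0.013 (95% interval -0.21 to 0.24, limma adjusted p = 0.993). The medians lay farther apart than the means, and wild-type 1 was the highest of all arrays. Without wild-type 1 the difference was 0.080. Of the other 2 probes, one gave 0.0091 and followed the main probe closely (r = 0.89 over 22 arrays within genotype), and the other gave -0.035 and followed it less closely (r = 0.48).

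Herpud1 encodes a membrane protein that helps assemble the degradation machinery of the endoplasmic reticulum. Its log2 ratio ran from -1.84 to -1.0 in wild type (median -1.36) and from -1.76 to -1.06 in knockout (median -1.50). The means of -1.40 ± 0.24 (SD, n = 9) and -1.43 ± 0.23 (SD, n = 13) differed by -0.033 (95% interval -0.24 to 0.17, limma adjusted p = 0.984).

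Xbp1 encodes the transcription factor whose mRNA is spliced by IRE1, and its probe does not tell the spliced form from the unspliced. Wild-type log2 ratios ran from -1.49 to -0.71 (median -1.07) and knockout ratios from -1.50 to -0.75 (median -1.21). The difference was -0.042 (95% interval -0.25 to 0.17, limma adjusted p = 0.979). For both Herpud1 and Xbp1 the highest arrays were wild-type 2 and knockout 4, and the genotypes overlapped over almost the whole range.

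Atf4 encodes the main transcription factor of the integrated stress response and is controlled mainly at translation. Wild-type log2 ratios ran from -2.50 to -1.87 (median -2.21) and knockout ratios from -2.61 to -1.93 (median -2.28). The difference was -0.053 (95% interval -0.23 to 0.12, limma adjusted p = 0.972), and only knockout 2, the lowest array, lay outside the wild-type range.

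Ddit3 encodes CHOP, a transcription factor induced downstream of ATF4. Wild-type log2 ratios ran from -2.42 to -1.52 (median -2.14) and knockout ratios from -2.34 to -1.95 (median -2.11). The wild-type arrays were spread more widely, with an SD of 0.33 (n = 9) beside 0.13 (n = 13), and wild-type 1, 3 and 4 were the highest arrays. The difference of -0.077 (95% interval -0.28 to 0.12, limma adjusted p = 0.960) became -0.0094 without wild-type 1.

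Trib3 encodes a pseudokinase that restrains ATF4 and AKT signalling. Its log2 ratio ran from -4.91 to -3.54 in wild type (median -4.69) and from -4.79 to -4.37 in knockout (median -4.60). By this probe wild-type forelimbs held about 4.07% of the reference signal. The top value belonged to wild-type 1, which lay 1.21 above the mean of the other wild-type arrays, and without it the wild-type SD of 0.42 became 0.11. The difference was 0.043 (95% interval -0.20 to 0.28, limma adjusted p = 0.982). Without wild-type 1 it was 0.18 (95% interval 0.052 to 0.30), an interval that excluded 0, with a limma adjusted p of 0.832. Only 2 of 13 knockout values were under the median of wild type. With the scanner software's ratio the difference of this probe, relative to the median of all genes, was 0.26 (limma p = 0.00604). With Cy5 alone it was 0.24 (limma p = 0.00915), and neither was called. The second probe, which lay at -2.30 ± 0.43 (SD, n = 9) and -2.44 ± 0.15 (SD, n = 13), gave a difference of the other sign, -0.14 (95% interval -0.39 to 0.12), so the direction of Trib3 rests on the probe. The probes lie at chromosome 2, 152029060 to 152029119 and 152029730 to 152029789, on mm8.

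Chac1 encodes an enzyme that degrades glutathione and is a target of ATF4. In the fit described above it had the largest difference of the 10 members by their representative probes. Its log2 ratio ran from -4.23 to -2.86 in wild type (median -3.61) and from -4.09 to -3.40 in knockout (median -3.82). In 12 of 13 knockout arrays the ratio was below the wild-type median, yet every knockout array lay inside the wild-type range. The means of -3.63 ± 0.39 (SD, n = 9) and -3.82 ± 0.19 (SD, n = 13) differed by -0.19 (95% interval -0.43 to 0.059), with a limma p of 0.129 and an adjusted p of 0.924. Without wild-type 1, which lay 0.87 above the mean of the other wild-type arrays, the difference was -0.090, less by more than 1.5 times. With the scanner software's ratio it was -0.028 relative to the median of all genes (limma p = 0.764). With Cy5 alone it was -0.0048 on the same footing (limma p = 0.997).

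**Figure D2:**
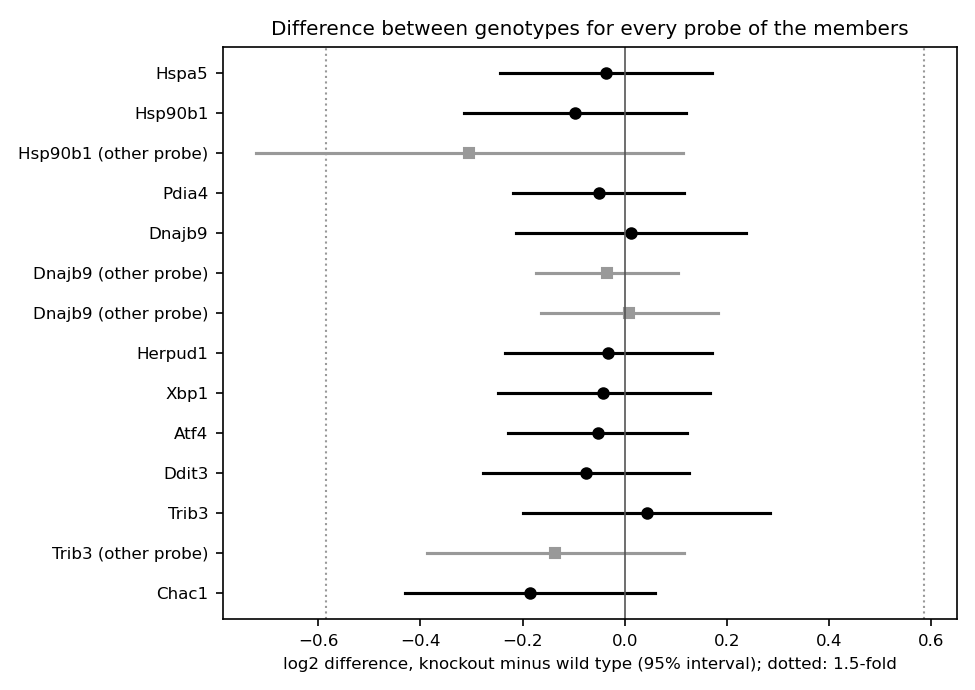
Log2 difference, knockout minus wild type, for each of the 14 probes with its 95% interval (black, the probe that represents the gene; grey, other probes; dotted lines at 1.5-fold). All 14 intervals cross 0, and only that of the dimmer Hsp90b1 probe, from -0.72 to 0.11, passes the line of 1.5-fold.

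Leaving out the arrays in doubt called no member. Without knockout 1 the median difference of the members was -0.034, and without both wild-type 1 and knockout 1 it was -0.014, with 0 of 10 members called by limma in either case. In the latter setting Herpud1 and Ddit3 stood at 0.00021 and 0.0038. Differences computed within a slide scattered around 0: of the 6 slides, between 1 (for Trib3) and 4 (for Xbp1 and Atf4) gave a value below 0, and the single slide values ran from -0.66 for Chac1 to 0.41 for Dnajb9. Within position 2, the only position with both genotypes, 3 of the members were lower in knockout, Hsp90b1 by log2 -0.21, Atf4 by -0.16 and Pdia4 by -0.062. The others were higher there, with Xbp1 at 0.38, Dnajb9 at 0.34, Herpud1 at 0.32, Ddit3 at 0.22, Hspa5 at 0.18, Chac1 at 0.11 and Trib3 at 0.052. Those arrays number 3 against 3 and include knockout 1. With position as a block, which rests on the same arrays for the genotype difference, the members' median was 0.15 and limma called 0 of 10. The part of position in these values cannot be told apart from genotype outside position 2.

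The wild-type arrays were more variable than the knockout arrays for 9 of the 10 members, all but Hspa5. The same held for 76% of all genes, so the members' share is to be read against that background. Without wild-type 1 the count was 8 of 10, against 65.1% of all genes. The difference in spread was not tested.

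The other genes of both branches were taken from 10 lists of 159 genes, all of which were tested, and limma called 0 of them in either direction. Unadjusted p-values under 0.05 were found for 12 of the 159 (7.55%), beside 5.33% of all genes. The median difference over all 159 was -0.053 and 119 lay below 0, against 53.4% of all genes, but with median centring, relative to the shift of all genes, 61 lay below 0. The list medians were below 0 in all 10 lists, and in 3 with median centring.

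Among the sensors and their relatives, the ER-resident kinases Ern1 and Eif2ak3 stood at -0.14 and -0.076, and Atf6 at -0.079. Creb3l1 and Creb3l2, membrane-bound factors known for driving secretory capacity in bone and cartilage, stood at -0.079 and 0.00086. The other probe of Creb3l2 gave -0.054. Atf6b, with the smallest p of the list, stood at -0.13 (95% interval -0.32 to 0.053, limma adjusted p = 0.931). The 10 sensor genes had a median of -0.074 with 6 below 0, and their median stayed below 0 under median centring, at -0.0018.

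Folding factors of the endoplasmic reticulum assist the chaperones among the members. Of the 20, 17 lay below 0 with a median of -0.068. Under median centring 8 lay below 0 and the median was 0.032. The lectin chaperones Calr and Canx stood at -0.059 and 0.0037, the disulfide isomerase Pdia3 at -0.11, and the BiP partners Hyou1, Dnajc3 and Sdf2l1 at -0.053, -0.20 and -0.13. Serpinh1, the collagen chaperone HSP47, had the lowest difference at -0.20 (95% interval -0.48 to 0.073, limma adjusted p = 0.924). Manf, a secreted stress-induced factor, stood at -0.0060. Txndc5, with the smallest p, stood at -0.14 (limma adjusted p = 0.918), and its other probe gave -0.036. Other probes gave -0.21 for Calr and -0.033 and -0.107 for Canx.

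The 17 degradation genes had a median of -0.016 with 11 below 0. That median was above 0 with the scanner software's ratio (0.024), with Cy5 alone (0.030), with median centring (0.065), with position as a block (0.012) and without wild-type 1 (0.0015). Edem1, which recognises misfolded glycoproteins, stood at -0.013. The ubiquitin ligase Syvn1 and its partner Sel1l stood at 0.052 and -0.11, the channel component Derl3 at -0.038, and Derl1, with the smallest p, at -0.14 (limma adjusted p = 0.918). Second probes of Sel1l and Derl1 gave values of 0.11 and, for 1 of 3, 0.011.

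Effectors of the integrated stress response held the lowest p of the 159 genes, that of Atf3. Atf3, a stress-induced transcription factor, stood at -0.23 (95% interval -0.37 to -0.098) with an unadjusted p of 0.00169 and a limma adjusted p of 0.880. Nupr1, a small stress-induced chromatin protein, stood at -0.25 (95% interval -0.44 to -0.062, limma p = 0.0113, adjusted p = 0.918). Neither passed the test. Atf5 stood at -0.14, Sesn2, an inhibitor of mTORC1 signalling, at 0.14 (its other probe at -0.094), Ddit4, with the same function, at -0.0025, and Ppp1r15a, the eIF2alpha phosphatase subunit, at 0.015. The 16 genes of this list had a median of -0.025 with 10 below 0, and under median centring the median was 0.064. Atf3 was highest in wild-type 1, at -1.30 against a wild-type mean of -1.71 ± 0.22 (SD, n = 9), as 5 of the members were.

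Genes of amino acid supply, many of which ATF4 is known to control, had a median of -0.069 with 17 of 22 below 0, and -0.017 with 13 below 0 under median centring. Unadjusted p-values were under 0.05 for 5 of the 22 (22.7%), beside 5.33% of all genes. Psat1 of serine synthesis stood at -0.14 (95% interval -0.24 to -0.039, limma p = 0.00829, adjusted p = 0.908), the mitochondrial folate enzyme Mthfd2 at -0.21 and the amino acid transporter Slc7a5 at -0.16. Phgdh, the first enzyme of serine synthesis, stood at -0.12. Asns, asparagine synthetase and a common readout of ATF4 activity, stood at 0.037 (95% interval -0.10 to 0.17, limma adjusted p = 0.977), and the cystine transporter Slc7a11 at -0.048. The 13 genes of tRNA charging had a median of -0.079, and 0.019 under median centring. Aars stood at -0.060 and Cars, with the smallest p, at -0.14 (limma adjusted p = 0.918). Other probes of Aars gave 0.0030 and -0.063.

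Secretory transport, cytosolic heat shock and mitochondrial chaperones were included as neighbouring processes. The 24 transport genes had a median of -0.017 (0.090 under median centring). Sec23a, a coat protein needed for collagen export, stood at -0.0098, the translocon subunit Sec61a1 at -0.0064 and the procollagen receptor Mia3 (TANGO1) at -0.0098. Kdelr3, a retrieval receptor, stood at -0.19 and Sar1a, with the smallest p, at -0.11 (limma adjusted p = 0.918). The 13 cytosolic heat shock genes had a median of -0.071 (0.030 under median centring), with Hspa1a at -0.084, Hspa8 at -0.050 and Hspb1 at -0.25 (limma p = 0.0254, adjusted p = 0.918). The 7 mitochondrial chaperones had a median of -0.024 (0.083 under median centring). Hspd1 stood at 0.026 and Clpp, the protease subunit, at -0.14 (limma adjusted p = 0.918). Other probes gave 0.057 for Sec23a, -0.067 and 0.115 for Sec61a1, 0.055 for Hspa8 and -0.025 for Hspd1, so the signs of these genes rest on the probe.

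Secreted matrix proteins, the clients of this machinery, had a median of -0.10 with 15 of 17 below 0. The median was -0.0026 with 9 below 0 under median centring, -0.40 with 17 below 0 with position as a block, and -0.17 with 16 below 0 without wild-type 1. Col2a1, the main cartilage collagen, stood at -0.10, the proteoglycan Acan at -0.22, Col1a1 at -0.14 and Matn1 at -0.42 (95% interval -0.84 to 0.0052, limma p = 0.0527, adjusted p = 0.918). The means of the 17 genes per array ran from 1.21 to 2.75 in wild type and from 1.56 to 2.27 in knockout. The chondrocyte markers, of which 7 of 7 were well above background, ran from 1.96 to 3.22 and from 2.41 to 3.15. Their part in the members' values was not tested.

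**Figure D3:**
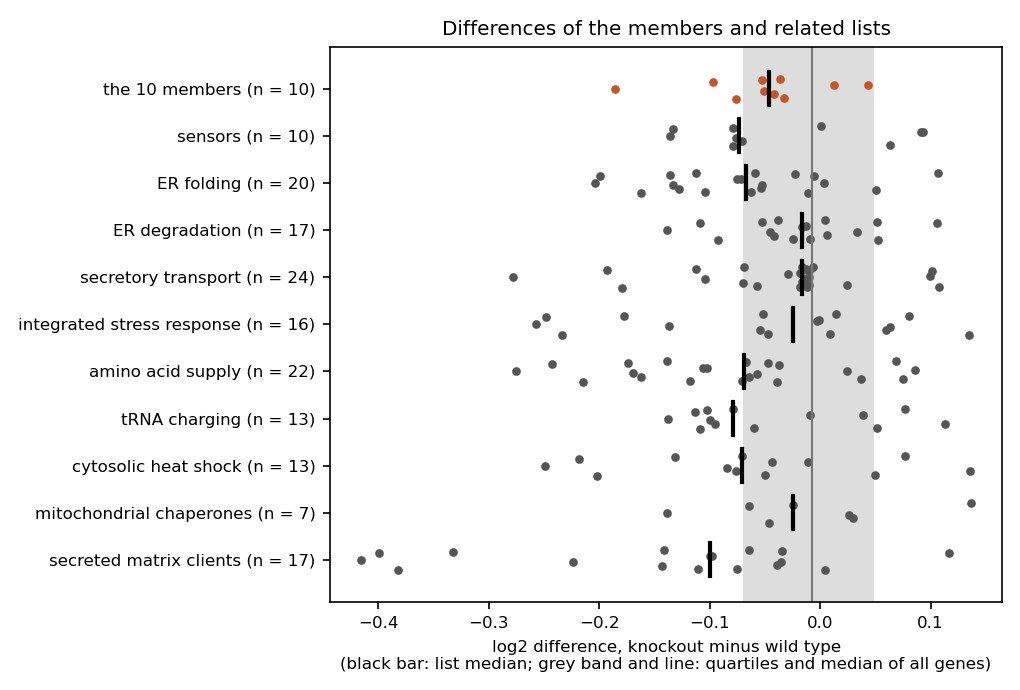
Log2 difference, knockout minus wild type, of each of the 10 members (orange) and of the genes of the 10 related lists (grey; one point per gene; black bars are list medians). The grey band and line are the quartiles and the median of all 18642 genes and unnamed probes; all list medians are below 0, from -0.10 to -0.016, in a fit in which the median of all genes was -0.0072.

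Beyond genotype, the members varied from array to array, and some varied together. Relations were computed over 22 arrays after removal of the genotype mean, for all 45 pairs, with 100000 permutations of the arrays within each genotype (two-sided) and Benjamini-Hochberg adjustment over the 45 pairs. For Pearson's r, 9 pairs passed an adjusted p of 0.05. By Spearman's rho these pairs passed the same threshold, and so did Xbp1 with Ddit3 (rho = 0.59). Herpud1 passed by rho with Ddit3 (0.57), Chac1 (0.63) and Atf4 (-0.56) as well. The arrays share 1 reference RNA, and the values share their normalisation. With median centring in place of loess all 45 correlations were positive, so signs and sizes depend on how arrays were scaled.

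Within the 6 endoplasmic reticulum genes, from Hspa5 to Xbp1, 14 of 15 correlations were positive, with a median of 0.47, and 5 passed. Hsp90b1 and Pdia4 were the closest pair of chaperones, with r = 0.83 (p = 1e-05, the smallest that these permutations can give, adjusted p = 0.00045) and rho = 0.77 (p = 0.00011). Hspa5 followed Pdia4 with r = 0.64 (p = 0.00228, adjusted p = 0.0147) and rho = 0.63 (p = 0.00326). Hspa5 followed Xbp1 with r = 0.60 (p = 0.00412, adjusted p = 0.0232) and rho = 0.66 (p = 0.00194). Herpud1 followed Xbp1 with r = 0.71 (p = 0.00026, adjusted p = 0.00375) and rho = 0.64 (p = 0.00193). Dnajb9 followed Xbp1 with r = 0.59 (p = 0.00716, adjusted p = 0.0358) and rho = 0.61 (p = 0.00528). Without the 2 arrays farthest from the median of the first gene named, these 5 values of r were 0.67, 0.53, 0.64, 0.65 and 0.56. With slide means removed they were 0.86, 0.67, 0.67, 0.75 and 0.78, and with position means removed 0.83, 0.67, 0.47, 0.57 and 0.47. Dnajb9 stood at r = 0.027 with Pdia4 and -0.32 with Hsp90b1, and neither relation passed (permutation, adjusted p = 0.980 and 0.356).

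Atf4 ran opposite to 2 of the chaperones. Its r was -0.70 with Hsp90b1 (p = 0.00048, adjusted p = 0.00375; rho = -0.77, p = 0.00012) and -0.70 with Pdia4 (p = 0.00046, adjusted p = 0.00375; rho = -0.71, p = 0.00065). Without the 2 farthest arrays the values were -0.68 and -0.71, with slide means removed -0.65 and -0.70, and with the scanner software's ratio -0.68 and -0.61. With median centring they turned positive, 0.37 and 0.40. The sign of this relation thus depended on the normalisation.

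By Pearson's r, Ddit3 kept company with Dnajb9 and Chac1. Its r with Dnajb9 was 0.86 (p = 2e-05, adjusted p = 0.00045; rho = 0.84, p = 2e-05), the highest of the 45. Its r with Chac1 was 0.74 (p = 0.0005, adjusted p = 0.00375; rho = 0.58, p = 0.0118). Without the 2 farthest arrays these were 0.82 and 0.67, with slide means removed 0.89 and 0.78, and without wild-type 1 0.82 and 0.62. They were 0.83 and 0.42 when computed from the scanner software's ratio. With Atf4, its known regulator, Ddit3 had an r of -0.046 (permutation, adjusted p = 0.980). Trib3 and Chac1, both targets of ATF4, had r = 0.55 (p = 0.0796, adjusted p = 0.171), which rested on wild-type 1: without that array r was 0.046, and with the scanner software's ratio it was -0.61. The median r within the 4 integrated stress genes was 0.43 with all arrays, -0.12 with that ratio, and 0.033 when wild-type 1 was left out.

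**Figure D4:**
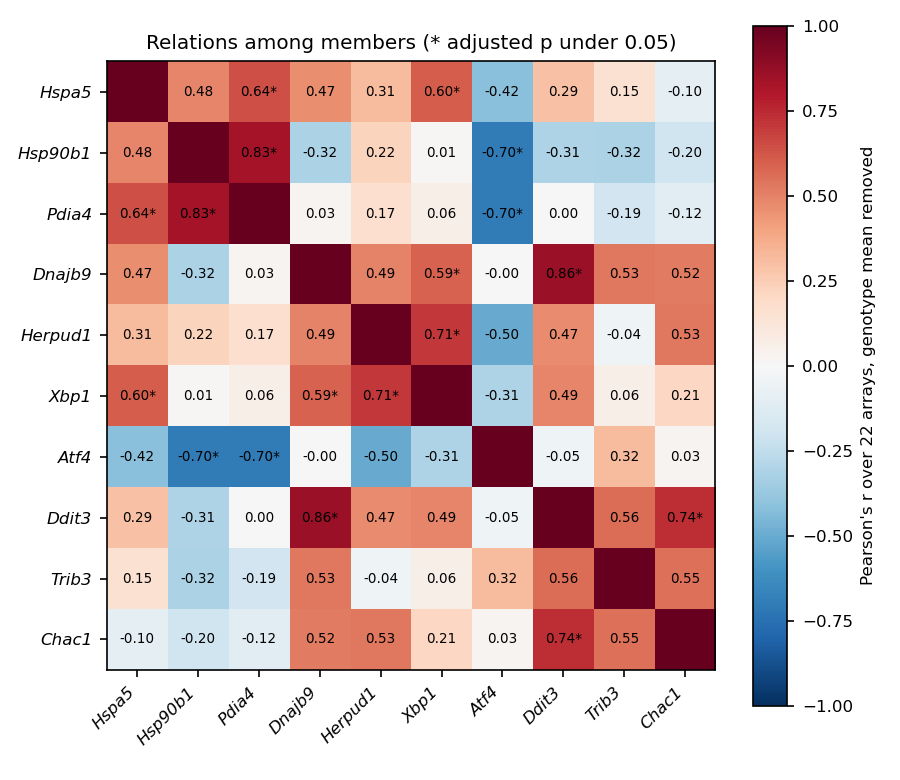
Pearson's r between the 10 genes over 22 arrays with the genotype mean removed (red positive, blue negative; asterisks mark the 9 of 45 pairs with an adjusted p under 0.05). Hsp90b1 and Pdia4 form a red pair that is blue against Atf4 (-0.70), and Ddit3 is red with Dnajb9 (0.86) and Chac1 (0.74).

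**Figure D5:**
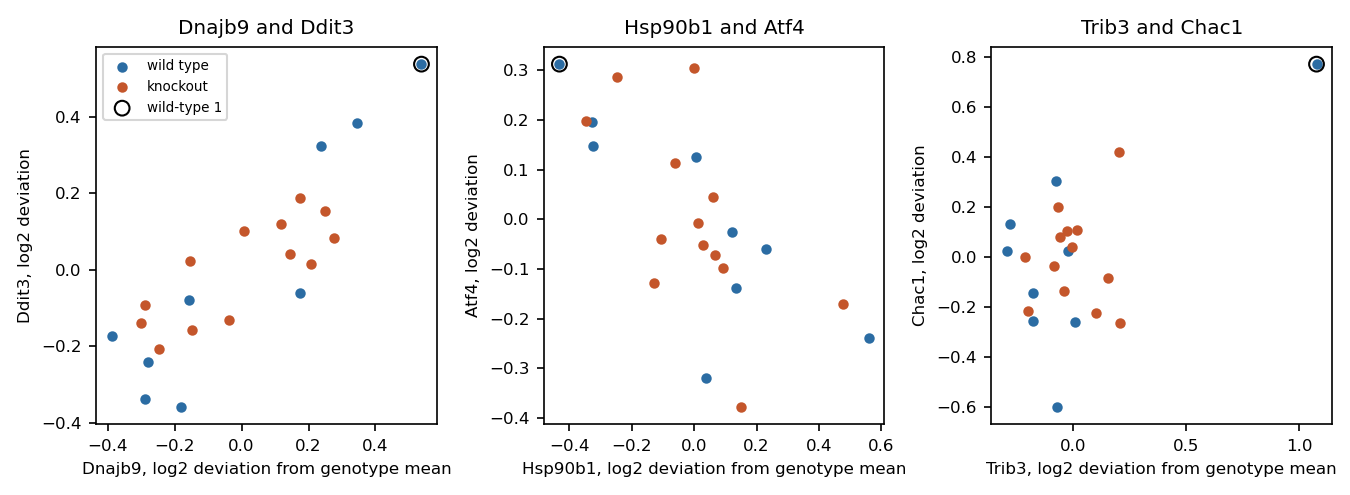
Deviation of each array from its genotype mean, in log2 units, for 3 pairs of genes (9 wild-type arrays in blue, 13 knockout arrays in orange; the ring is wild-type 1). Dnajb9 and Ddit3 rise together (r = 0.86) and Hsp90b1 and Atf4 run opposite (r = -0.70) across both genotypes, while the relation of Trib3 and Chac1 (r = 0.55) rests on the ringed array.

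Wild-type 1 was the highest of the 22 arrays for Dnajb9, Atf4, Ddit3, Trib3 and Chac1, at 0.20, -1.87, -1.52, -3.54 and -2.86. It was the lowest for Pdia4 and the second lowest for Hsp90b1. It stood in the middle for Hspa5 and Herpud1, number 10 of 22 from the top in both. Of further stress genes, Atf3 was number 1 of 22 from the top, Nupr1 and Atf5 number 2 and Psat1 number 3. Sesn2 was number 13 and Asns number 20, so most but not all of these stood high in this array. Genes with very low ratios were high there as well: 234 genes with a mean log2 ratio under -3 lay on average 0.71 above their means in wild-type 1. Over the 22 arrays the mean of those genes followed Chac1 with r = 0.89 and rho = 0.69. The permutation p of r was 1e-05, and 6e-05 when adjusted over 12 relations. For Ddit3 r was 0.79 and rho 0.75 (permutation p of r = 0.00026, adjusted 0.00104). Without the 2 farthest arrays r was 0.74 for Chac1 and 0.61 for Ddit3. Trib3 had r = 0.68 (permutation p of r = 0.0321, adjusted 0.0963), which became 0.26 without the 2 farthest arrays, and its rho was 0.25. Dnajb9 had r = 0.51 (permutation p of r = 0.0476, adjusted 0.114) and rho = 0.41. For the other members r was 0.23 for Atf4, -0.091 for Hspa5, -0.32 for Hsp90b1, -0.19 for Pdia4, 0.24 for Herpud1 and 0.10 for Xbp1. The part of these genes in the values of Ddit3, Trib3 and Chac1 was not tested.

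To see which genes varied most like the members, all 18613 genes and unnamed probes with complete values, members left out, were ranked by their r over the 22 arrays with a score, the mean of standardised values with the genotype mean removed. For the score of Hspa5, Hsp90b1 and Pdia4 the closest named genes were Psme1 (r = 0.88), Fip1l1 (0.87), Pelp1 (0.85), Nectin1 (0.85) and Scaf4 (0.84), none of which belongs to the lists of either branch. Folding factors of the endoplasmic reticulum ranked high as a group, with 17 of 20 positive and a median r of 0.45, beside 0.026 over all genes. Of the key genes in this list, Calr stood at 0.65, Dnajc3 at 0.50, Manf at 0.50, Serpinh1 at 0.47, Sdf2l1 at 0.46 and Hyou1 at 0.43. Pdia3 at 0.22 and Canx at 0.026 ranked lower. The degradation genes had a median of 0.024 and the transport genes of -0.19. Cytosolic heat shock genes had a median of 0.19, mitochondrial chaperones of 0.20 and genes of tRNA charging of 0.195. The medians were 0.031 for the sensors, 0.014 for the integrated stress response list, -0.053 for amino acid supply and 0.082 for the matrix genes. For the score of Ddit3, Trib3 and Chac1 named genes among the closest were Gpnmb (0.98), Ly6d (0.97), Fosl1 (0.96) and Tcra (0.96). Their wild-type log2 ratios were low, at -4.32, -2.67, -2.87 and -3.75. Among known stress genes Atf3 stood at 0.80 and Nupr1 at 0.62 with this score, Psat1 at 0.12 and Asns at -0.29. Without wild-type 1 these were 0.62, 0.68, 0.050 and -0.084. All 17 matrix genes were negative with it, with a median of -0.55. Without wild-type 1 the change differed by gene. Acan went from -0.56 to -0.058 and Matn1 from -0.67 to -0.17. Of the 17, only Col2a1 and Col9a2 turned positive, at 0.0061 and 0.23, and the rest stayed negative. Col11a1 went from -0.79 to -0.52, Col3a1 from -0.69 to -0.45, Col5a2 from -0.55 to -0.52 and Fn1 from -0.36 to -0.49. Of these genes, all but Acan, Matn1 and Col2a1 were named after their values were seen. With the median Cy5 signal of the array, r was -0.44 for the first score and -0.38 for the second. With the number of spots well above background it was -0.135 and -0.082. The part of array brightness in the likenesses was not tested. These likenesses describe 22 arrays and carry no test.

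Genes that share the stress element of the sequences shown above were also looked up in the comparison of genotypes. Of 37 genes whose promoter window held it, 22 were tested and limma called 0 of them. Their median difference was -0.0043 and 12 of 22 lay below 0. With it were, besides Hspa5 and Hsp90b1, the list genes Calr at -0.059, Canx at 0.0037, Derl3 at -0.038, Dnajc3 at -0.20 and Syvn1 at 0.052. Another 3 list genes with it, chosen after their values were seen, were Creld2 at -0.063, Ero1b at -0.054 and Pdia6 at -0.022. Of the 1218 genes with the composite element of Herpud1, Trib3 and Chac1, 362 were tested, limma called 0, and the median difference was -0.020.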

How the data were processed

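The submitters' processing notes name Agilent Feature Extraction 9.5 as the software, and the headers give version 9.5.3.1. Mean spot and median background intensity values were deposited raw, per the file headers. The deposited log10 ratio is that of Cy5 over Cy3 after the scanner software's background subtraction and dye normalisation, and the value table deposited for the series repeats these log10 numbers. Flags for outliers and for signal above background, deposited as 0 or 1, were used as given, and no sample column was left without a sample.

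From these, intensities were background-corrected with normexp (offset 50), and a loess curve was removed from each array, fitted without control and outlier spots (weight 0). Testing required a Cy5 flag for signal well above background on 9 or more arrays, and each gene was represented by its brightest probe. Of 41174 probes, 23374 were named through their accession and 109 through another listed accession in a GRCm38.p6 RefSeq table, 6678 by a symbol still in use and 2887 by a former one, while 1826 kept the name of the array design and 6300 had none. Of the 18642 units tested, 16179 were named genes. Probe coordinates are the files' own (mm8), and no annotation of that build was used here. Limma 3.58.1 in R 4.3.3 was fitted on 22 arrays without covariates, with Benjamini-Hochberg adjustment over all units and 95% intervals, and was tested on simulated data. The number of arrays limits the precision.

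Named were the 10 members, a set of key genes of the same pathways whatever their values, the gene with the smallest p in each list, the 5 genes most like each score (1 is not reported here), and Chsy1. The members and lists were chosen with earlier results of these data known. Alternatives covered the scanner software's ratio, offset 16, median centring, scaling between arrays (Aquantile), Cy5 alone, other probe filters, the mean of probes, blocks for slide, position and replicate number, array weights, trended robust variance, and omission of each array. The omission of wild-type 1 with knockout 1 was added after seeing the data.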

Additional observations from a re-analysis of the deposited data

Results flagged for a closer look

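Trib3 in wild-type 1 had a log2 ratio of -3.54, far from the other 8 wild-type arrays, the nearest of which stood at -4.61. The gap was 0.78 of the range of the 9 arrays, above the critical value of 0.493. The 10 members were examined in this way in the wild-type group only, since the knockout group holds more than 10 arrays, and chance marks about 1 in 20 groups.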

How the results depend on the processing

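No member passed the threshold in limma under any of 36 alternatives: 0 of 360 member differences were called, and 32 of them changed sign. The smallest adjusted p of a member was 0.107, and in the fit described above it was 0.924. Of all genes, limma called 4, beside 1 with the scanner software's ratio, with median centring, and with slide, position or the replicate block, 7 with array weights, and 2 without wild-type 1 and knockout 1. Leaving out 1 array at a time gave 2 to 6 called genes, 0 called members and a member median of -0.072 to -0.021, and it gave 2 genes without wild-type 2, 5 or 6. The member median was 0.15 with position as a block. Median centring moved the median difference of all genes to 0.238, and gene values are given relative to it, while counts are those of that fit. These small differences, none of them called, changed sign; the cause was not tested. With the scanner software's log ratio the log2 differences were Creb3l1 0.019, Manf 0.012, Edem1 0.024, Sel1l 0.030, Derl3 0.087 and Mia3 0.012. With offset 16 the log2 differences were Creb3l2 -0.0012. With median centring, and the shift of all genes subtracted, the log2 differences were Hspa5 0.072, Hsp90b1 0.011, Pdia4 0.051, Herpud1 0.074, Xbp1 0.059, Atf4 0.045, Atf6 0.0031, Calr 0.052, Manf 0.10, Hyou1 0.048, Edem1 0.095, Ddit4 0.10, Aars 0.048, Sec23a 0.054, Sec61a1 0.10, Mia3 0.096, Hspa8 0.057 and Col2a1 0.0068. With Cy5 alone the log2 differences were Canx -0.0035, Edem1 0.030, Sel1l 0.034, Derl3 0.077 and Hspd1 -0.010. With the mean of all probes of a gene the log2 differences were Dnajb9 -0.0043, Trib3 -0.046, Creb3l2 -0.026, Canx -0.045, Sel1l 0.0010, Sec23a 0.024, Sec61a1 0.014 and Hspa8 0.0022. With slide as a block the log2 differences were Manf 0.011 and Ddit4 0.024. With position as a block the log2 differences were Hspa5 0.18, Herpud1 0.32, Xbp1 0.38, Ddit3 0.22, Chac1 0.11, Ern1 0.026, Creb3l2 -0.12, Calr 0.054, Canx -0.13, Dnajc3 0.20, Sdf2l1 0.50, Manf 0.36, Edem1 0.038, Sel1l 0.022, Syvn1 -0.025, Derl3 0.040, Ppp1r15a -0.0015, Asns -0.031, Mthfd2 0.00039, Slc7a11 0.18, Sec23a 0.056, Hspa1a 0.16 and Hspa8 0.16. With the replicate block, which paired arrays by number, they were Hspa5 0.027, Herpud1 0.0066, Xbp1 0.057, Trib3 -0.014, Creb3l2 -0.048, Canx -0.029, Sdf2l1 0.00026, Manf 0.049 and Hspa8 0.034. With array weights the log2 differences were Ddit3 0.0086, Creb3l2 -0.050, Canx -0.022, Manf 0.0025, Syvn1 -0.0095, Derl3 0.028 and Sec23a 0.013. Without wild-type 1 and knockout 1 the log2 differences were Herpud1 0.00021, Ddit3 0.0038, Canx -0.0090, Manf 0.031, Edem1 0.014, Derl3 0.025 and Ddit4 0.034. Leaving out 1 array at a time turned the sign in a range of -0.039 to 0.079 for Canx, -0.058 to 0.045 for Creb3l2, -0.070 to 0.068 for Ddit4, -0.064 to 0.017 for Derl3, -0.036 to 0.080 for Dnajb9, -0.038 to 0.010 for Edem1, -0.087 to 0.018 for Herpud1, -0.085 to 0.0042 for Hspa5, -0.069 to 0.057 for Manf, -0.042 to 0.017 for Mia3, -0.061 to 0.056 for Ppp1r15a, -0.039 to 0.033 for Sec23a, -0.035 to 0.024 for Sec61a1 and -0.087 to 0.012 for Xbp1. Same-numbered arrays did not deviate together: over 9 pairs r was -0.31 to 0.49, with 3 over 0.1 and 2 arrays closest to their own number, so the numbers were not taken to pair samples. Trib3 and Chac1, at Cy5 signals of 176 to 511 and 189 to 342, are limited by signal over background.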
